A study of Bos taurus with 12 samples.

Results

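Plasma extracellular vesicle (EV) miRNAs were examined for a change between an unstimulated and a superstimulated estrous cycle that differed between heifers with a high and with a low ovulatory response. For each of 6 heifers, the log2 level in the unstimulated cycle was subtracted from that in the superstimulated cycle, and the 3 changes of high responders were compared with the 3 changes of low responders. All 12 libraries were used. Of 783 bovine miRNAs in the table, 336 had a read in at least 1 library and 190 were above 0 in at least 6 of 12 libraries, and these 190 were tested. By unadjusted P of at most 0.05 the change differed between the response groups for 9 miRNAs (4.74%), and after adjustment for 0. The share of 4.74% is no larger than this threshold passes when nothing differs. In high responders both strands of the endothelial miR-126 hairpin, miR-139, miR-17-5p and miR-151-5p fell between cycles by unadjusted P, and the difference from low responders was called for each. In low responders miR-181a rose by unadjusted P, with log2 changes of 0.63, 0.19 and 2.25 in the 3 heifers. In the other direction, miR-497, miR-374a and miR-204 differed at a few reads per library.

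The animals were Charolais- and Limousin-cross heifers with synchronized cycles, all of which received follicle-stimulating hormone (FSH) for 4 days from Day 10 of a cycle, with prostaglandin and insemination. From a larger set of such heifers, 3 in the upper quartile of corpus luteum number after FSH were selected as the high (H) group. Another 3 in the lower quartile were selected as the low (L) group. Blood was drawn from every heifer on Day 7, once in the unstimulated (U) cycle and once in the superstimulated (S) cycle, which gave groups UH, UL, SH and SL with 3 libraries each. The response letter was therefore set by an outcome of the S cycle, and the U cycle always came before the S cycle, so that time and treatment cannot be told apart within a heifer. A lower level of a miRNA in plasma can come from fewer vesicles of a kind or from less of the miRNA in each, and these cannot be told apart here.

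Mature miRNAs are short RNAs, cut from hairpin precursors, that guide Argonaute proteins to matching sites in mRNAs and lower their translation or stability. Target choice depends mainly on the seed, bases 2 to 8 from the 5′ end, so that miRNAs with a shared seed have overlapping targets. Plasma EVs carry miRNAs from blood cells, platelets, endothelium and other organs. FSH drives the growth of ovarian follicles, and each ovulated follicle becomes a vascular, progesterone-secreting corpus luteum.

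The sequences that carry the comparison are given as DNA letters, as the table has them, with the seed in capitals. The miRNAs called with a lower change in H than in L heifers were these, with miR-181b added because it shares the seed and the pattern of miR-181a.
miR-139: tCTACAGTgcacgtgtctccagt
miR-126-5p: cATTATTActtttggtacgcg
miR-126-3p: cGTACCGTgagtaataatgcg
miR-17-5p: cAAAGTGCttacagtgcaggtagt
miR-151-5p: tCGAGGAGctcacagtctagt
miR-181a: aACATTCAacgctgtcggtgagtt
miR-181b: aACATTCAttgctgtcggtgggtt
The miRNAs called with a higher change in H than in L heifers were the next 3, and miR-374b is shown because its seed is that of miR-374a and its values went the other way.
miR-497: cAGCAGCAcactgtggtttgta
miR-374a: tTATAATAcaacctgataagtg
miR-374b: aTATAATAcaacctgctaagtg
miR-204: tTCCCTTTgtcatcctatgcct
Of the 9 called miRNAs, no pair shared a seed. The seed of miR-497 was that of miR-15b, miR-16a, miR-16b and miR-195, and the seed of miR-17-5p was that of miR-20a and miR-93.

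A change, below, is the S minus U difference on the log2 scale of TMM-normalized reads + 1, and a difference of changes is the mean change of the 3 H heifers minus that of the 3 L heifers. Because 1 read was added, values for miRNAs with few reads understate the fold. A miRNA was called when limma gave an absolute value of 1 or more with P up to 0.05 before adjustment, the call rule used throughout. Differences that are given below with an SE alone were not called. The response-dependent change was called for 9 of 190 miRNAs (4.74%), 3 with the H change above the L change (1.58%) and 6 with the H change below it (3.16%). The count at unadjusted P of at most 0.05 was also 9 (4.74%), no larger a share than the threshold of 0.05 passes when nothing differs. After Benjamini-Hochberg adjustment limma called 0 of 190 (0.0%), and the smallest adjusted P was 0.814. With 3 heifers against 3, the exact two-sided permutation test cannot give a p below 0.1, which it gave for all 9.

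Across all 190 miRNAs, the median size and spread of the changes were greater in H heifers, but not for every heifer. The SD of the changes across miRNAs was 1.51, 1.25 and 1.005 in heifers H1 to H3. It was 1.20, 0.90 and 1.15 in L1 to L3, so that H3 lay below L1 and L3. The change itself was called for 16 miRNAs in H heifers (8.42%), 7 of them higher (3.68%) and 9 lower (4.74%) in the S cycle, and for 4 miRNAs in L heifers (2.11%), 2 in each direction (1.05%). At unadjusted P of at most 0.05 the counts were 22 in H (11.6%) and 5 in L (2.63%), and after adjustment 0 in both (0.0%). The median absolute mean change was 0.50 in H and 0.35 in L, and the median SD between heifers was 0.89 in H and 0.70 in L, with the SD greater in H for 113 of the 190. The median absolute difference of changes was 0.53, beside a median standard error (SE) of 0.85. The H change was above the L change for 95 miRNAs (50.0%) and below it for 95 (50.0%). Mean changes were positive for 87 miRNAs in H (45.8%) and for 76 in L (40.0%), and the 3 changes had the same sign for 53 miRNAs in H (27.9%) and for 43 in L (22.6%). Whether the spread or the number of calls differed between H and L was not tested.

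Opposite movement was counted in the means and in the single heifers, and whether it was more frequent than for unrelated changes was not tested. The mean changes had opposite signs for 79 of 190 miRNAs (41.6%). All 3 H changes lay on one side of 0 and all 3 L changes on the other for 9 miRNAs (4.74%). Of these, 5 were higher in every H heifer and lower in every L heifer (2.63%), namely miR-204, miR-484, miR-29c, miR-185 and miR-423-5p, and 4 were lower in every H heifer and higher in every L heifer (2.11%), namely miR-139, miR-17-5p, miR-181a and miR-181b. These signs rest on the pairing of libraries by heifer number, which the deviations of paired libraries support little in L heifers, with correlations of 0.07, 0.06 and -0.05 in L1 to L3. The H and L changes did not overlap for 26 miRNAs (13.7%), 12 with H above (6.32%) and 14 with H below (7.37%). Across miRNAs, the mean H and mean L changes had a Pearson correlation of 0.18 (n = 190) and of 0.31 for the 108 with a mean of at least 10 normalized reads. The points share libraries and normalization, and they are not independent replicates.

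**Figure D1:**
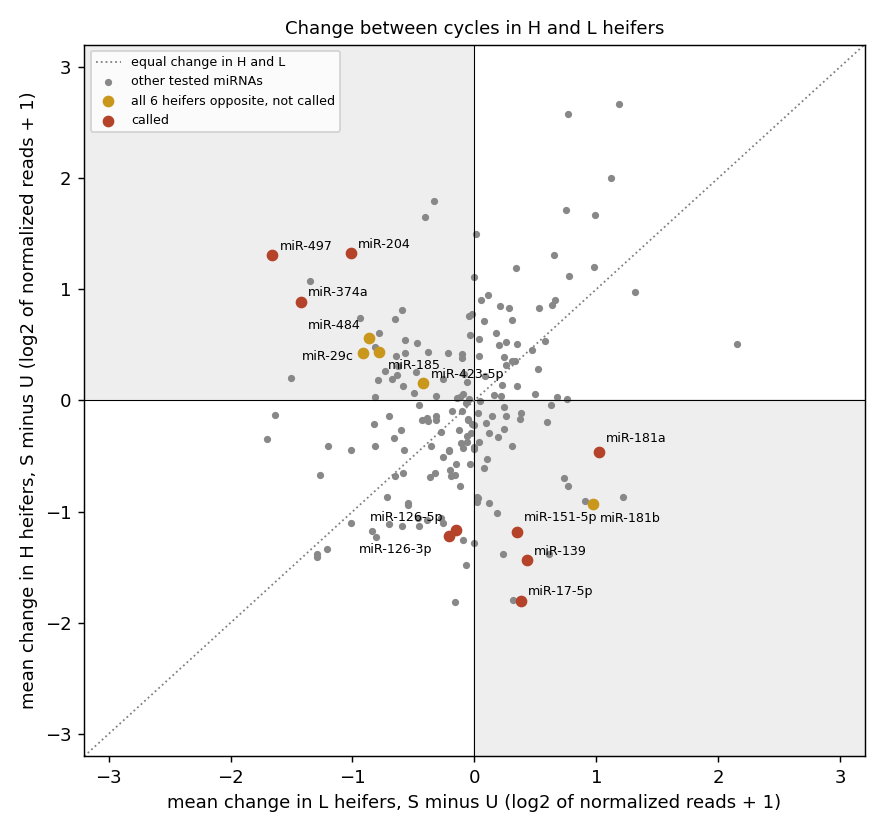
Mean change between cycles in the 3 H heifers (vertical axis) against that in the 3 L heifers (horizontal axis) for 190 miRNAs, both as log2 of normalized reads + 1. Red points are the 9 called miRNAs, gold points the 5 others with opposite signs in all 6 heifers, the shaded areas hold the 79 miRNAs with opposite mean changes, and the dotted line marks equal change.

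Depth and a marker of haemolysis also differed between the cycles of a heifer. Known-miRNA reads ranged from 21466 to 77433 per library, and 3 reads corresponded to between 1.82 and 6.08 normalized reads. The S library held 1.28, 0.29 and 1.48 times the reads of the U library in heifers H1, H2 and H3, against 0.781, 0.827 and 0.716 times in L1, L2 and L3. The log2 ratio of miR-451, which red blood cells release on haemolysis, to miR-23a, which is stable to it, went from -1.29 to -0.65 in H1, from -3.55 to -1.87 in H2 and from -1.0 to -1.11 in H3. In L heifers it went from -1.0 to -3.09 in L1, from -1.83 to -1.76 in L2 and from -2.47 to -2.66 in L3. The largest shifts of the ratio were thus in H1, H2 and L1, upwards in H1 and H2 and downwards in L1. In H2 the normalized change of miR-23a was -1.08 and that of miR-451 0.54, so that miR-23a made up more of the shift. The ratios rest on few reads of miR-451, from 6 in SL1 to 72 in SH3. The part of these shifts in the results below was not tested. The endothelial miR-126, the erythroid miR-486, the leukocyte miR-150 and let-7 miRNAs were among the 10 most abundant miRNAs. The 10 most abundant of each library took 66.5 to 75.6% of its reads.

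The most abundant miRNAs called were the 2 strands of the miR-126 hairpin. In the ARS-UCD2.0 annotation this hairpin lies in EGFL7, a gene of endothelial cells, and miR-126 is known to keep vessels intact by strengthening the response to vascular endothelial growth factor. The guide strand miR-126-3p had 3960, 14808 and 5435 reads in UH1, UH2 and UH3 and 1499, 3423 and 2357 reads in SH1, SH2 and SH3. It had 3842, 6895 and 5546 reads in UL1, UL2 and UL3 and 2462, 5698 and 2992 reads in SL1, SL2 and SL3. After normalization the changes were -1.53, -0.61 and -1.52 in H heifers and -0.23, -0.15 and -0.24 in L heifers, so that all 6 heifers were lower in the S cycle and every H heifer by more than every L heifer. The mean H change was -1.22 ± 0.53 (SD, n = 3; limma adjusted P = 0.112) and the mean L change -0.21 ± 0.05 (SD, n = 3). The difference of changes was -1.02 with an SE of 0.39 (limma P = 0.0263, exact permutation p = 0.1).

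The other strand, miR-126-5p, had fewer reads and nearly the same values. Its reads were 483, 1889 and 757 in UH1 to UH3 and 171, 392 and 442 in SH1 to SH3, against 562, 858 and 896 in UL1 to UL3 and 407, 812 and 422 in SL1 to SL3. The H changes were -1.62, -0.77 and -1.09, and the L changes -0.05, 0.05 and -0.44. H heifers fell by 1.16 ± 0.43 (SD, n = 3; limma adjusted P = 0.112), L heifers had a mean change of -0.15 ± 0.26 (SD, n = 3), and the difference was -1.01 with an SE of 0.35 (limma P = 0.0154, exact permutation p = 0.1). Both strands come from 1 precursor and are not independent. For both, the difference sat at the threshold of 1: with median-of-ratios size factors it was -0.965 for miR-126-3p and -0.963 for miR-126-5p. With the heifer pairing left out (no replicate block), and without the mean-variance trend, both calls were lost while the differences stayed -1.02 and -1.01. Without H1 the differences were -0.86 and -0.78, and of the fits without a heifer only that without H2 called miR-126-3p, at -1.32. The call for miR-126-5p was also lost without L1 and L2, at -0.96 and -0.92.

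The lowest unadjusted P belonged to miR-139, whose hairpin lies in PDE2A and which is known to restrain proliferation through the insulin-like growth factor receptor. It had 16, 93 and 24 reads in UH1 to UH3 and 7, 7 and 15 reads in SH1 to SH3. In L heifers it had 22, 31 and 23 reads in the U cycle and 23, 36 and 21 in the S cycle. All 3 H heifers were lower in the S cycle (-1.24, -2.16 and -0.92) and all 3 L heifers were higher (0.46, 0.33 and 0.50). The mean H change was -1.44 ± 0.64 (SD, n = 3; limma adjusted P = 0.202), the mean L change 0.43 ± 0.09 (SD, n = 3), and the difference -1.87 with an SE of 0.62 (limma P = 0.012, exact permutation p = 0.1). It was called without each heifer in turn, at -2.13 to -1.51. On the deposited scale without TMM it was -1.82 and missed the threshold of P.

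A member of the miR-17-92 cluster, miR-17-5p, had the most negative difference. This cluster is known to promote cell division and survival and is active in the granulosa cells of growing follicles. Reads of miR-17-5p were 12, 20 and 18 in UH1 to UH3 and 2, 1 and 13 in SH1 to SH3, the lowest levels being in SH1 and SH2. In L heifers they were 17, 10 and 12 in the U cycle and 16, 12 and 11 in the S cycle. The H changes were -2.34, -2.34 and -0.72, and the L changes 0.31, 0.35 and 0.49, with no overlap. H heifers fell by 1.80 ± 0.94 (SD, n = 3; limma adjusted P = 0.221), L heifers had a mean change of 0.38 ± 0.09 (SD, n = 3), and the difference was -2.18 with an SE of 0.83 (limma P = 0.0237, exact permutation p = 0.1). Leaving out H1, H2, L2 or L3 ended the call at differences of -1.91, -1.91, -2.20 and -2.13, and leaving out H3 or L1 did not. The call was also lost on the deposited scale, at -1.96.

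The other miRNAs with the seed of miR-17-5p had differences near 0. Of the 3 tested miRNAs with seed AAAGTGC, miR-20a, which is transcribed with miR-17-5p, had a difference of -0.09 with an SE of 1.23, and miR-93, from a paralogous cluster, had 0.17 with an SE of 0.38. The H changes of miR-20a were -3.31, -0.60 and -0.23, and its L changes -1.43, 0.56 and -3.00, at 14 reads or fewer in every library. Over the list of miR-17-92 miRNAs and their paralogs, 3 of 7 tested had the H change above the L change and 4 below, and the median was -0.09.

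The 5′ strand miR-151-5p comes from a hairpin in PTK2, the gene of focal adhesion kinase, and is known for a part in cell migration. It had 34, 65 and 60 reads in UH1 to UH3 and 7, 15 and 47 in SH1 to SH3, and 26, 60 and 38 in UL1 to UL3 and 45, 38 and 32 in SL1 to SL3. The 3 H heifers were lower (-2.29, -0.60 and -0.65), L1 and L3 were higher (1.17 and 0.39) and L2 was lower (-0.52), just above the nearest H heifer. The mean H change was -1.18 ± 0.96 (SD, n = 3; limma adjusted P = 0.319), the mean L change 0.35 ± 0.85 (SD, n = 3), and the difference -1.53 with an SE of 0.66 (limma P = 0.0418, exact permutation p = 0.1). The call was lost without H1, L1 or L3, at differences of -0.97, -1.12 and -1.51. It was also lost on the deposited scale (-1.49) and without the mean-variance trend (-1.53). The other strand of this hairpin, miR-151-3p, was more abundant, with a mean of 368 normalized reads against 39.3 for miR-151-5p. Its H changes were -0.58, -0.38 and -0.03 and its L changes 0.66, -0.40 and 0.33, which overlap. Its difference was -0.53 with an SE of 0.38 and was not called.

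The miR-181 miRNAs are known for tuning T-cell receptor signals and for lymphocyte development. Reads of miR-181a were 20, 55 and 28 in UH1 to UH3 and 16, 13 and 26 in SH1 to SH3, and 22, 44 and 13 in UL1 to UL3 and 26, 46 and 42 in SL1 to SL3. Every H heifer was lower in the S cycle (-0.43, -0.56 and -0.40) and every L heifer higher (0.63, 0.19 and 2.25). The L change was called at 1.02 ± 1.09 (SD, n = 3; limma adjusted P = 0.925) and the H change was -0.47 ± 0.09 (SD, n = 3). The difference was -1.49 with an SE of 0.65 (limma P = 0.0442, exact permutation p = 0.1), and of the fits without a heifer only that without L2 called it, at -1.91. Without L3 the difference was -0.88, and without the other 4 heifers it was -1.69 to -1.44. The call was also lost with median-of-ratios size factors, on the deposited scale and without the mean-variance trend, at -1.44, -1.46 and -1.49.

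Its partner miR-181b, which lies next to miR-181a at both loci that ARS-UCD2.0 gives, had the same signs in all 6 heifers with fewer reads. It had 6, 7 and 11 reads in UH1 to UH3, 3, 1 and 7 in SH1 to SH3, 6, 3 and 7 in UL1 to UL3 and 5, 8 and 14 in SL1 to SL3. The H changes were -0.97, -0.99 and -0.83 and the L changes 0.13, 1.26 and 1.52. The difference was -1.90 with an SE of 0.89 (limma P = 0.058, exact permutation p = 0.1) and was not called. Summed over the 2 miRNAs, normalized reads went from 38.5 to 25.7 in H1, from 44.5 to 28.4 in H2 and from 29.6 to 20.1 in H3, and from 26.0 to 38.4 in L1, from 42.8 to 53.7 in L2 and from 19.9 to 87.3 in L3. The groups did not overlap in the direction of the sum, and L3 had the widest step.

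**Figure D2:**
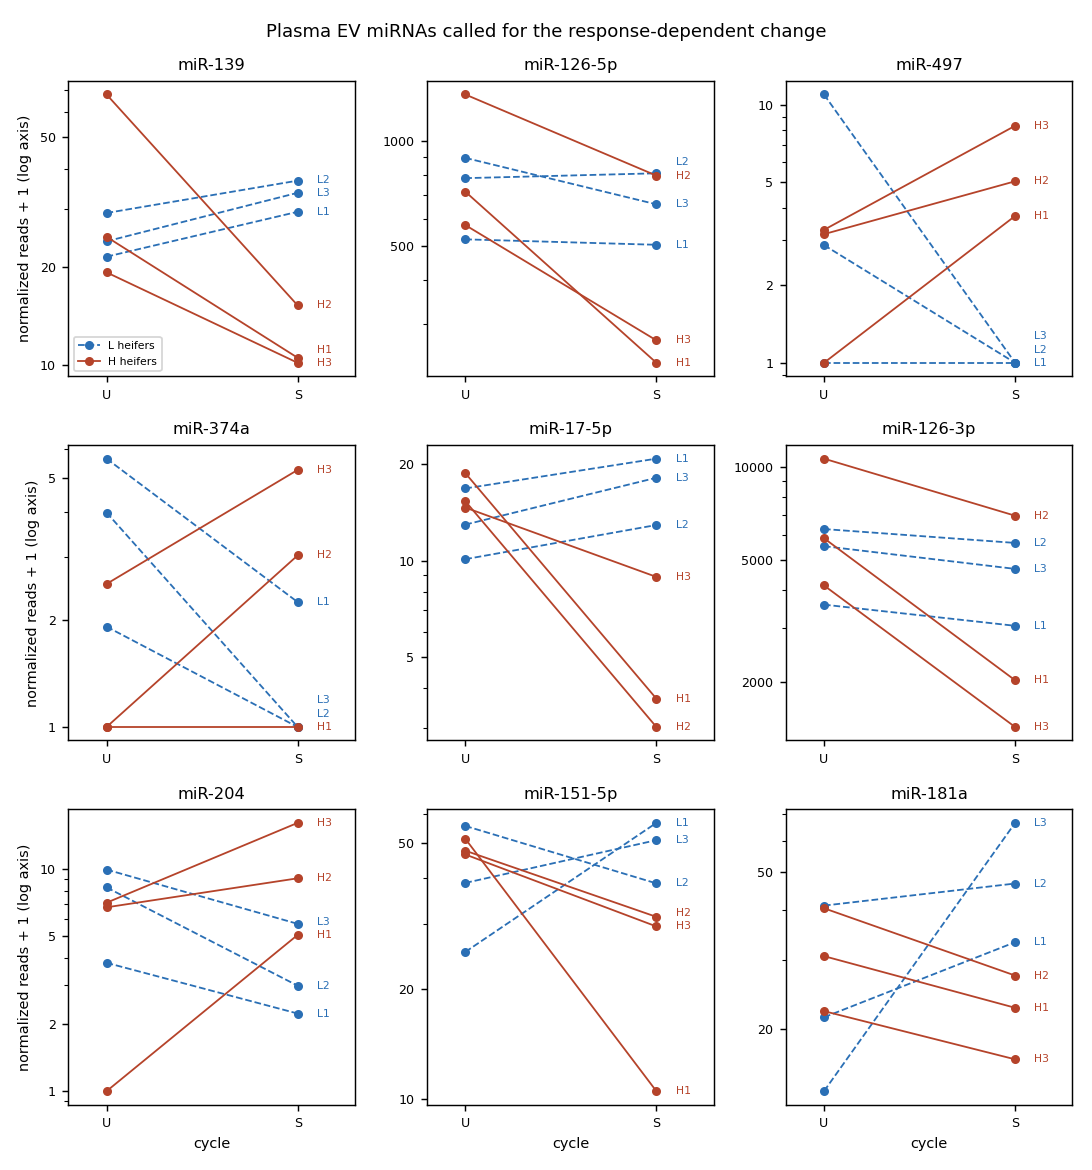
Normalized reads + 1 (log axis) of the 9 called miRNAs in the U and S cycle, with a line for each of 6 heifers, L heifers dashed in blue and H heifers solid in red. In the panels of miR-139 and miR-17-5p all H lines go down and all L lines go up, and in those of miR-497 and miR-374a most points are at 5 normalized reads or fewer.

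The 3 miRNAs called with the H change above the L change had few reads, with means of 1.5, 2.5 and 5.5 normalized reads for miR-374a, miR-497 and miR-204. Through the shared seed, miR-497 belongs with the miR-15/16 miRNAs, which are known to hold cells before DNA synthesis by acting on cyclins. It had 0, 3 and 3 reads in UH1 to UH3 and 2, 2 and 12 in SH1 to SH3. In L heifers it had 2, 0 and 10 reads in the U cycle and 0 in all 3 libraries of the S cycle. The H changes were 1.89, 0.68 and 1.34, and the L changes -1.52, 0.00 and -3.46. The difference was 2.96 with an SE of 1.03 (limma P = 0.0156, exact permutation p = 0.1), the highest of the 190 miRNAs, and since SL was at 0 its size depends on the added read: it was 1.25 with 5 added reads. Without L3, in which it went from 10 reads to 0, it was 2.06 and not called.

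For miR-374a, counts were lower still. It had 0, 0 and 2 reads in UH1 to UH3, 0, 1 and 7 in SH1 to SH3, 5, 1 and 3 in UL1 to UL3 and 1, 0 and 0 in SL1 to SL3. The H changes were 0.00, 1.60 and 1.06 and the L changes -1.34, -0.93 and -2.0, so that no L heifer reached an H heifer. The difference was 2.31 with an SE of 0.83 (limma P = 0.0186, exact permutation p = 0.1). It was 0.848, under the threshold of 1, with 5 added reads, and its call was lost without H2, H3 or L3, at 1.95, 2.22 and 2.02. The miRNA with the same seed, miR-374b, had a difference of -1.44 with an SE of 1.06, at 4 reads or fewer in every library.

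The third, miR-204, is transcribed within TRPM3 and is known for the retinal pigment epithelium and other epithelia. It had 0, 8 and 8 reads in UH1 to UH3, 3, 4 and 25 in SH1 to SH3, 3, 8 and 9 in UL1 to UL3 and 1, 2 and 3 in SL1 to SL3. Every H heifer was higher in the S cycle (2.34, 0.43 and 1.20) and every L heifer lower (-0.76, -1.47 and -0.81). The difference was 2.34 with an SE of 0.95 (limma P = 0.0324, exact permutation p = 0.1), and it was called in 1 of 6 fits without a heifer, that without H2, the others giving 1.83 to 2.47. The call was lost with no replicate block (2.34), on the deposited scale (1.80) and without a filter on low values (2.34).

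Beside miR-204, 4 miRNAs were higher in every H heifer and lower in every L heifer without being called. The most abundant was miR-423-5p, with 828, 1952 and 1773 reads in UH1 to UH3, 942, 701 and 2889 in SH1 to SH3, 1186, 2100 and 1645 in UL1 to UL3 and 566, 1662 and 801 in SL1 to SL3. Its H changes were 0.06, 0.02 and 0.38 and its L changes -0.65, -0.21 and -0.39, and the difference of 0.57 had an SE of 0.33. H1 and H2 were thus almost at 0. The other strand of this hairpin, miR-423-3p, had a difference in the other direction, -0.21 with an SE of 0.50. Its mean L change was positive, at 0.35, and its H and L changes overlapped.

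The other 3 were expressed at a mean of 8.7 to 24.2 normalized reads. For miR-29c, which with its relatives represses collagens and other matrix proteins, the difference was 1.34 with an SE of 0.71, and L1 alone had an L change under -1, at -2.21. Of the 5 tested miR-29 miRNAs, 3 had the H change above the L change and 2 below, with a median of 0.19. The most abundant of them, miR-29a, had a difference of -0.42 with an SE of 0.49. For miR-185, which acts on small GTPases of the cytoskeleton and lies in TANGO2, the difference was 1.21 with an SE of 0.66, and its H changes were 1.06, 0.01 and 0.23. For miR-484 it was 1.43 with an SE of 0.84, with H changes of 0.40, 0.43 and 0.86 and L changes of -0.23, -1.24 and -1.12. Leaving out any heifer called none of the 4, and limma without the mean-variance trend called miR-484.

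**Figure D3:**
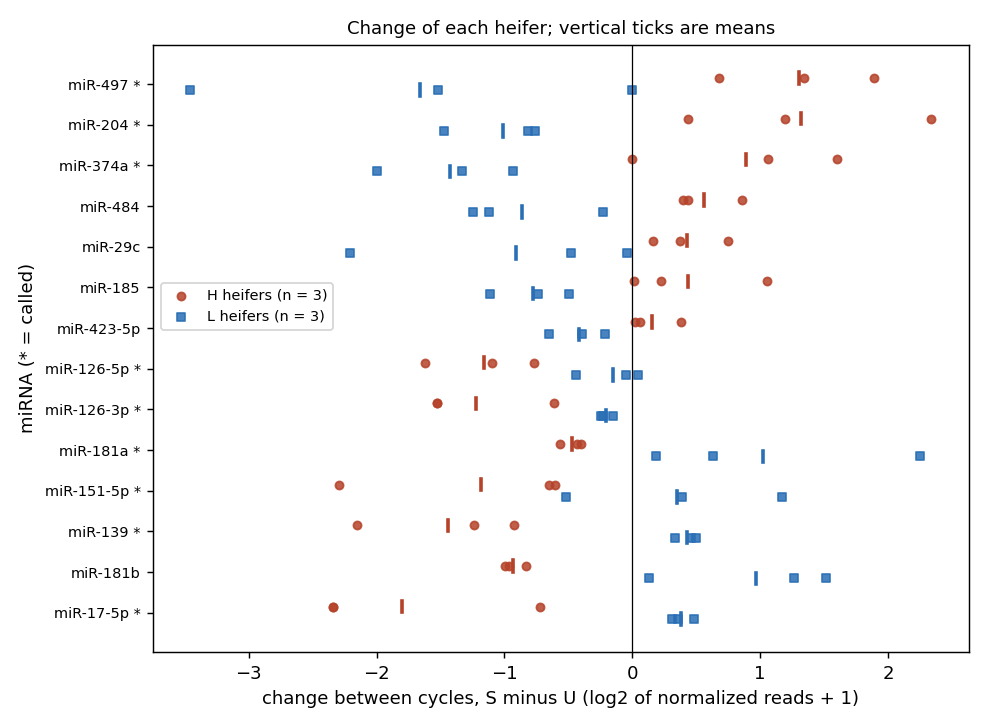
Change between cycles (log2 of normalized reads + 1, S minus U) of each H heifer (red circles) and each L heifer (blue squares) for the 9 called miRNAs, marked with an asterisk, and the 5 others with opposite signs in all 6 heifers, with the mean of 3 as a vertical tick. For every miRNA shown the circles and squares do not overlap, which for the 5 others follows from their selection. The 9 called were chosen on these same changes. Within a miRNA, the L changes of miR-497 run from -3.46 to 0.00.

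Described by lists of related miRNAs, 3 lists of 2 tested members lay furthest below 0, those of miR-181, of miR-151 with miR-28, and of miR-126. Their medians were -1.69, -1.03 and -1.01, beside 0.00 over all 190. In the list of miR-151 with miR-28, the tested members were the 2 strands of the miR-151 hairpin, at -1.53 and -0.53, and miR-28 was not tested. The 3 lists hold 4 of the called miRNAs described above. The other list of endothelial miRNAs, miR-221 and miR-222, lay on the other side, with 2 of 2 above and a median of 0.34, and without H1 or H2 it had 1 above and 1 below. Among lists with at least 2 tested members, the muscle list had the highest median (1.20, 4 of 4 with the H change above the L change). Of 7 miRNAs on that list 4 were tested. Next came the lists of miRNAs tied to ovarian follicles (0.87, 2 of 3), of erythroid miRNAs (0.84, 3 of 3) and of the miR-199 and miR-214 miRNAs of mesenchymal cells (0.79, 5 of 5). In these 4 lists the difference of changes was called for no member, beside 4.74% over all 190, and with so few members this count says little about the lists. The list of the DLK1-DIO3 locus, an imprinted cluster of many miRNAs, had 7 of 8 above and a median of 0.69. That rested on H1, without which 4 were above and 4 below with a median of -0.03, and without L3 the median was 0.24. The mesenchymal median was 0.24 without L2, and the ovarian one was 0.39 without L1. The erythroid median was 0.56 without L1 and 0.81 without H2, each with 2 of 3 above. Members of 1 transcript or hairpin, such as miR-451 with miR-144 or the 2 strands of miR-199a, are not independent. Of 8 miRNAs on the ovarian list 3 were tested, and its median was the value of miR-378. The most abundant of the 3, miR-21-5p, had a difference of -0.30, and their summed reads had one of -0.22.

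**Figure D4:**
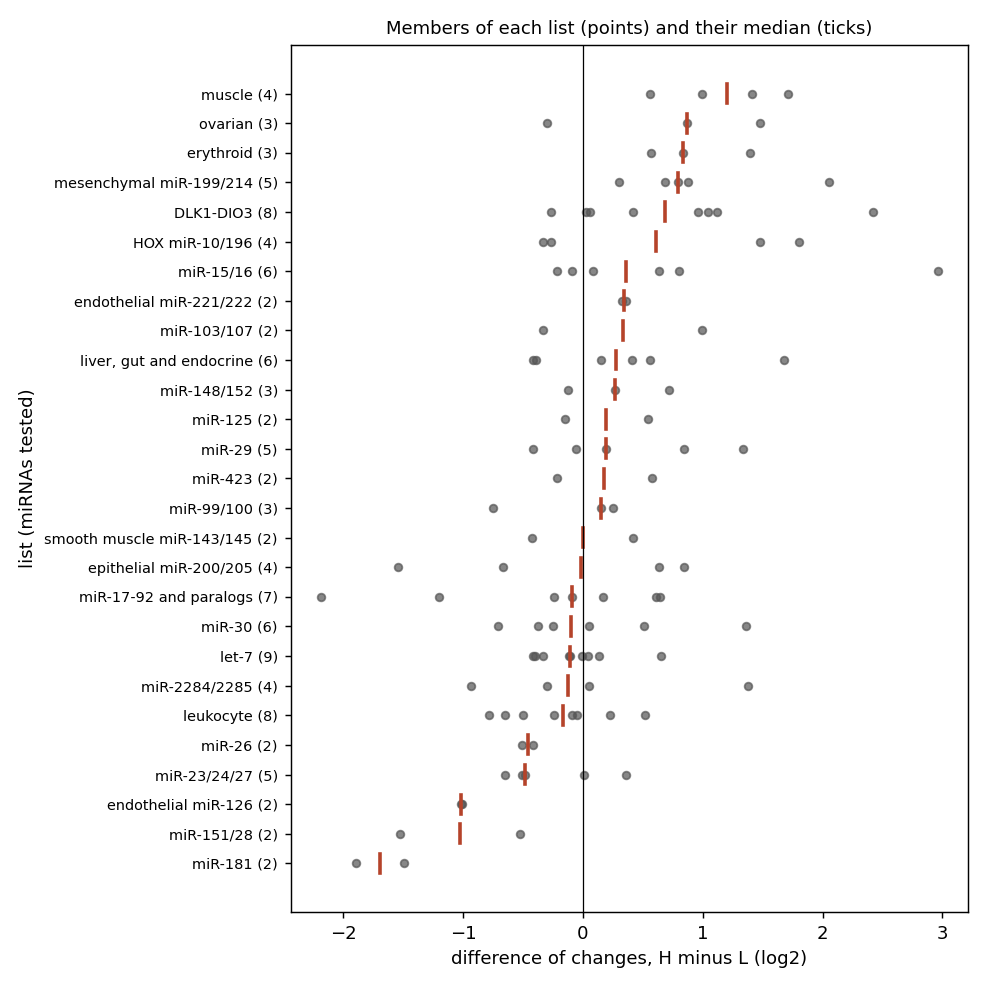
Difference of changes (H minus L, log2) of each tested miRNA (grey points) in 27 lists with at least 2 tested members, with the median of the list as a red tick, ordered by the median; the number tested is in parentheses. The muscle list is at the top with 4 points above 0 and the miR-181 list at the bottom with 2 points under -1.

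Muscle miRNAs are made in skeletal and cardiac muscle and reach plasma when muscle is strained or damaged. Their position on top of the lists rested on heifer L1. In UL1 there were 1246 reads of miR-1, 506 of miR-133a and 94 of miR-206, against 41 and 77 reads of miR-1, 22 and 28 of miR-133a and 19 and 12 of miR-206 in UL2 and UL3. The changes of miR-1 were -4.59, 0.40 and -0.33 in L1, L2 and L3 and -0.82, 2.18 and -0.75 in H1, H2 and H3, which overlap, and the difference of 1.71 had an SE of 1.20. For miR-133a the difference was 1.41 with an SE of 0.83, for miR-206 it was 0.99 with an SE of 0.91 and for miR-499 it was 0.56 with an SE of 0.89. All 4 had a positive mean H and a negative mean L change. Without L1 the median of the list was 0.39 and 2 of 4 had opposite means, and without H2 it was 0.51 and 1 of 4.

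Erythroid miRNAs are carried by red blood cells and their vesicles. The most abundant, miR-486, had 1014, 1558 and 3608 reads in UH1 to UH3, 1286, 1110 and 13808 in SH1 to SH3, 1233, 2873 and 1255 in UL1 to UL3 and 794, 2255 and 1371 in SL1 to SL3. It was higher in all 3 H heifers (0.21, 1.01 and 1.62), with a mean of 0.95 ± 0.70 (SD, n = 3) that missed the fold threshold, and lower in L1 and L2 and higher in L3 (-0.22, -0.22 and 0.77). The difference was 0.84 with an SE of 0.45. For miR-451 the difference was 1.40 with an SE of 0.80, and L1, with a change of -2.47, lay far from the others. For miR-144, transcribed with miR-451, it was 0.57 with an SE of 1.24. The miR-451 to miR-23a ratio given above, of which miR-451 is itself a part, did not follow miR-486 in every heifer: in H3 and L3 the ratio was slightly lower in the S cycle while the change of miR-486 was 1.62 and 0.77.

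Leukocyte miRNAs had small differences whose balance moved with single heifers. Of 8 tested, 6 had the H change below the L change, 5 had opposite means, 0 were called, and the median was -0.16. Without H2 the median was -0.62 and 8 had opposite means, without H3 it was -0.07 with 4 above and 4 below, and without L1 it was -0.43 with 7 below. For miR-150, abundant in mature lymphocytes, the L changes were 0.53, 0.59 and 0.67 and the H changes -1.34, 0.95 and -0.19, and the difference was -0.78 with an SE of 0.51. For miR-223, the main myeloid miRNA, the L changes were -0.09, 0.74 and 1.38 and the H changes -0.07, 0.28 and -0.12, with a difference of -0.65 and an SE of 0.41. The lymphocyte miR-342 had a difference of -0.50 with an SE of 0.39 and miR-142-5p, present in all blood lineages, -0.24 with an SE of 0.39. Heifer H2 stood apart, with changes of 0.95 in miR-150 and 0.50 in miR-342 against negative values in H1 and H3.

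**Figure D5:**
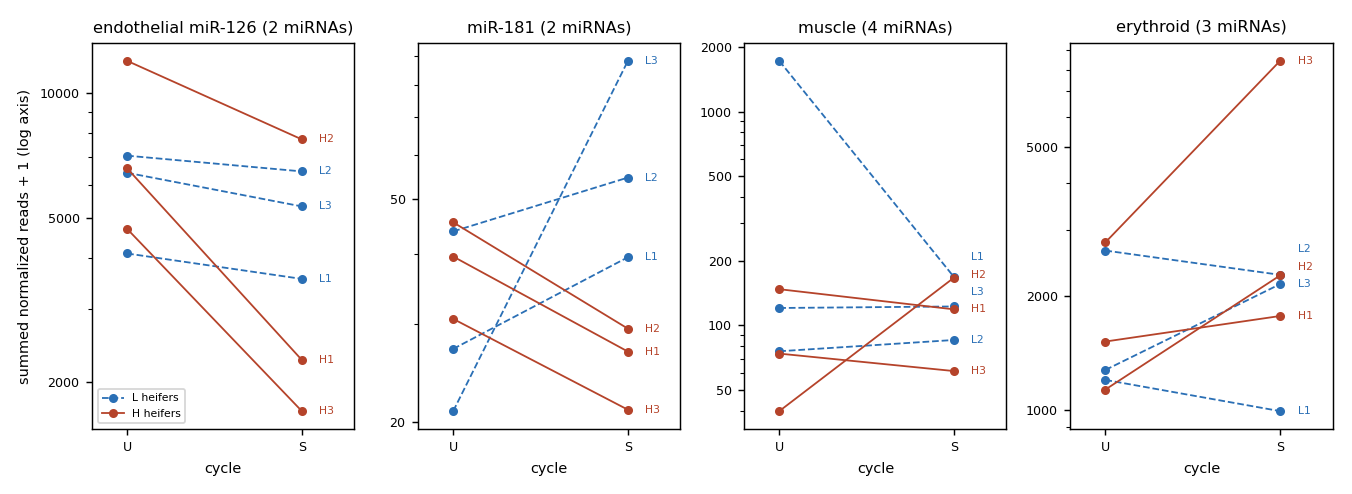
Summed normalized reads + 1 (log axis) of the tested miR-126, miR-181, muscle and erythroid miRNAs in the U and S cycle, with a line for each heifer, L heifers dashed in blue and H heifers solid in red. The miR-126 sum is lower in all 6 heifers, the miR-181 sum goes down in 3 H and up in 3 L heifers, and in the muscle panel UL1, with a sum of 1724, stands above all other libraries.

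Several miRNAs were called in H heifers while their difference between H and L was not called. For miR-199a-3p of the mesenchymal list, the H change was called at 2.0 ± 1.63 (SD, n = 3; limma adjusted P = 0.175), the L change was 1.12 ± 1.26 (SD, n = 3), and the difference of 0.88 had an SE of 0.81. Heifers H1 and L1, with changes of 3.86 and 2.37, led their groups, and without H1 the difference was -0.06 and the list held 2 miRNAs above 0 and 3 below. For miR-196a, encoded in the HOX clusters, H heifers rose by 2.67 ± 1.19 (SD, n = 3; limma adjusted P = 0.175), L heifers had changes of 2.10, -1.26 and 2.72, and the difference was 1.48 with an SE of 1.09. For let-7c, H heifers rose by 1.31 ± 1.08 (SD, n = 3; limma adjusted P = 0.221), L heifers had a mean change of 0.65 ± 0.90 (SD, n = 3), and the difference was 0.66 with an SE of 0.59. In these 3 miRNAs both groups had a positive mean change, and L2 was lower in the S cycle in each of them.

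Among the 8 miRNAs chosen for qPCR, patterns varied in the sequencing values. The differences of miR-139 and miR-17-5p were called, as above, and those of let-7c, miR-196a, miR-199a-3p and miR-206 were not. For miR-205, a miRNA of epithelia, the changes were 1.31, -0.32 and -0.90 in H heifers and -0.38, -0.81 and -1.25 in L heifers, and the difference of 0.84 had an SE of 0.69. For miR-6517, UH libraries had 5, 2 and 6 reads and SH libraries 4, 1 and 5, while L libraries held 1 read in all, in UL2, and a difference of changes was not detectable at this depth, at 0.13 with an SE of 0.82.

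Among the 10 most abundant miRNAs, miR-126-3p was the only one called. The let-7 miRNAs, which keep cells differentiated and share the seed GAGGTAG, are the largest family in these vesicles. For let-7b, the most abundant miRNA with a mean of 10644 normalized reads, the difference was 0.14 with an SE of 0.46, for let-7a-5p it was -0.11 with an SE of 0.38 and for let-7f -0.33 with an SE of 0.36. Of 9 let-7 miRNAs tested, 3 had the H change above the L change and 6 below, with a median of -0.11, and their summed reads had a difference of 0.10. For the ubiquitous miR-16b the difference was 0.08 with an SE of 0.38. The miR-15/16 seed as a whole, apart from miR-497, ranged from -0.22 for miR-16a to 0.80 for miR-15b, with 0.63 for miR-195, whose hairpin is the neighbour of that of miR-497.

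How far the 9 calls depended on single heifers differed between miRNAs. Out of 6 fits that each left out 1 heifer, the call held in 6 for miR-139, in 5 for miR-497, in 3 each for miR-126-5p, miR-374a and miR-151-5p, in 2 for miR-17-5p and in 1 each for miR-126-3p, miR-204 and miR-181a. None of the 9 changed direction in any fit. The count of called miRNAs was 4 without H1 and 12 without H2, the heifer whose S library was the smallest, and 3 and 6 of these were among the 9. The called miRNAs with a mean below 10 normalized reads, as 82 of the 190 had, were the 3 with a positive difference, and their SEs were 0.83 to 1.03, against 0.35 to 0.83 for the 6 with a negative difference, of which miR-17-5p had the highest.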

How the data were processed

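Small RNA libraries were made by the authors from plasma EV RNA of 6 heifers in both cycles with a kit that adds unique molecular identifiers (UMI). Per their methods, reads were trimmed and collapsed by UMI with Cutadapt, mapped to UMD3.1 with Bowtie2 2.2.2, and perfect matches were annotated against miRBase. The authors tested with edgeR after TMM normalization. The deposited values are a score: tags per 1000000 mapped reads of each library, cut by the authors to whole numbers. The columns left unused numbered 0.

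Each library's values were whole parts of multiples of a step per read, and 100% of them gave back whole reads, of which 21466 to 77433 were found per library. TMM factors were computed over 12 libraries in Python 3.11.15 (numpy 2.4.6, pandas 2.3.3, scipy 1.17.1), reads were scaled to the mean depth, and limma 3.58.1 (R 4.3.3; lmFit, eBayes with a mean-variance trend, two-sided) was fitted to the 6 S minus U differences of log2(normalized reads + 1). Because the deposited unit is a rounded normalized value, a log-scale fit was used and no count test was run. Calling used an absolute log2 of at least 1 and P of at most 0.05, with Benjamini-Hochberg adjustment over 190 miRNAs. Intervals of counting error are not given; UMI-collapsed reads limit precision as the reads printed show.

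The U and S library of a heifer were paired by the number in the library names, the same heifers having been sampled in both cycles per the study. Deviations of the paired libraries from their group means had correlations of 0.12, 0.22 and 0.19 in H1 to H3 and 0.07, 0.06 and -0.05 in L1 to L3 (190 miRNAs).

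The miRNAs, lists and tests were chosen with earlier results of these data known. Named were all called miRNAs, those with opposite signs in all heifers, the 10 most abundant, the 8 measured by qPCR in the study, and at most 4 members with the most reads of each family described; miR-374b falls under the last. Host genes and neighbours within 10000 bases are from the ARS-UCD2.0 annotation and are used by name only. Sequences are those of the deposited table. Alternatives were 2 other normalizations, the deposited scale with a tag value of 10 added, other filters, 0.5 or 5 added reads, no trend, a robust prior, no replicate block, and leaving out each heifer. Figures were drawn with matplotlib 3.10.9.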

Additional observations from a re-analysis of the deposited data

Results flagged for a closer look

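The change between cycles differed between the response groups, by the test of the difference itself at unadjusted P of at most 0.05 in limma, for 9 miRNAs, and each was noted for this reason. The differences of changes (H minus L, log2) were -1.87 for miR-139, -1.01 for miR-126-5p, 2.96 for miR-497, 2.31 for miR-374a, -2.18 for miR-17-5p, -1.02 for miR-126-3p, 2.34 for miR-204, -1.53 for miR-151-5p and -1.49 for miR-181a. The adjusted P was 0.814 for all of them, and in each the 3 H and 3 L changes did not overlap, as for 26 of the 190 miRNAs (13.7%). In H heifers the direction was the same in all 3 for 8 of the 9, the exception being miR-374a with 0.00 in H1. In L heifers it was the same in all 3 for miR-139, miR-17-5p, miR-126-3p, miR-374a, miR-204 and miR-181a.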

How the results depend on the processing

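The called count of the response-dependent change was 9 (3 positive, 6 negative). It was 5 (3 and 2) on the deposited scale without TMM, 6 (3 and 3) with median-of-ratios size factors, 6 (0 and 6) with a mean of at least 10 reads, 11 (6 and 5) without the mean-variance trend, 7 (3 and 4) with no replicate block, and 4 to 12 when a heifer was left out, 4 being without H1 and 12 without H2. Similar counts did not mean the same miRNAs. Of the 11 called without the trend, 5 were among the 9, and of the 10 called without L3, 2 were. In H heifers the count was 16, and 8 (without H1) to 23 (without H3) when a heifer was left out. In L heifers it was 4, against 1 on the deposited scale, 11 of 336 without a filter, 1 with a mean of at least 10 reads, 0 with 5 added reads (4 at unadjusted P of at most 0.05 in limma), 2 with no replicate block, and 2 to 10 when a heifer was left out, 2 being without H2 or H3 and 10 without L2. Adjusted P under 0.05 was reached only by the H change of miR-126-3p, with a robust prior (0.0333) and without H2 (0.0172). With no replicate block, the calls for miR-126-3p, miR-126-5p and miR-204 were lost, 6 of the 9 remained and 1 other was gained.

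Of the named differences, 598 alternative values kept direction and side of the threshold, 46 lost the call, 13 gained it and 19 changed sign. The changes of sign were in miRNAs that were never called: on leaving out a heifer, let-7b ranged from -0.14 to 0.42, let-7a-5p from -0.32 to 0.058, miR-16b from -0.19 to 0.41, miR-199a-3p from -0.057 to 1.5, miR-6517 from -0.18 to 0.29, miR-142-5p from -0.53 to 0.092, miR-144 from -0.46 to 1.58, miR-199b from -0.76 to 1.98, miR-199a-5p from -0.68 to 2.16 and miR-20a from -0.95 to 0.87. For miR-6517 the sign also changed on the deposited scale (-0.022) and with 5 added reads (-0.044). The cause of these shifts was not tested. Depth limits the positive calls, since 3 reads were up to 6.08 normalized reads, and the response letter, cycle order and treatment rest on 3 heifers per group.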
